A study of Mus musculus with 1600 samples.

Results

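Cells at the 2 ends of a ranking by proximal and distal limb genes were compared among single cells of mouse limb buds at E10.5, where E gives the embryonic day. Each cell was ranked by log2((Meis1 + Meis2 CPM + 5)/(Lhx2 + Lhx9 CPM + 5)), where CPM is the number of counts scaled by the cell's total. The 30 highest cells, called proximal-like, were set against the 30 lowest, called distal-like. They came from 114 eligible cells out of 120 at this stage, and from 480 cells analysed in all. Eligible cells had at least 1000 detected genes, which 1 cell lacked, and under 50 CPM of the endothelial cadherin Cdh5, which left out 5 more.

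The embryos were C57BL/6 mice carrying an SCX-GFP transgene, a reporter of the tendon progenitor factor scleraxis, and both groups carry it. Limbs of siblings from 1 litter were combined before dissociation and capture on a Fluidigm C1 chip, so E10.5 was 1 sample with no replicate animals. The same ranking was also applied to 155 eligible E12.5 cells of the same genotype, another pooled sample. The series addresses which cell types and transcriptomes a developing mouse limb holds. Where in the bud a cell lay was not recorded, so proximal-like and distal-like name ends of a ranking of dissociated cells.

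The limb bud grows out from the flank as a mesenchyme under ectoderm. Meis1 and Meis2 are homeodomain factors of the proximal bud, the future upper arm or thigh, and retinoic acid from the trunk is known to keep them on. Lhx2 and Lhx9 are LIM homeodomain factors of the distal mesenchyme, which grows under fibroblast growth factors (FGFs) from the apical ectodermal ridge, and Msx1 is a homeodomain factor of the same distal region and a target of bone morphogenetic proteins (BMPs).

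To be called, a gene needed a log2 ratio of summed CPM, with 5 added to each sum, of at least 1 in size, a count in at least 10 of the 60 cells, and every library pool of one group above every pool of the other. Cells were sequenced in library pools of 40, which are a technical split of the 1 sample, with pools 1, 2 and 3 at E10.5. Cells are not replicates, so no test was made. Besides the 4 ranking genes, 302 (3.71%) were called higher and 332 (4.08%) lower in proximal-like cells, and 7512 were not called. Of 961 genes with a log2 ratio of at least 1, these 302 also had every pool apart. On the lower side 332 of 979 genes past the same size did. The members of both groups were chosen by transcript counts of these same cells, so all values describe them, and a count of called genes is read only against these percentages. Ranking by Meis1 plus Meis2 alone shared 19 of the 30 proximal-like and 23 of the 30 distal-like cells with this ranking and called 96 of the 302 higher and 83 of the 332 lower genes. Ranking by Lhx2 plus Lhx9 alone shared 21 of the 30 proximal-like cells and called 69 and 94 of these genes. Only 14 of the 30 distal-like cells were among the 30 with most Lhx2 plus Lhx9.

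Among genes with textbook roles in the limb, 4 were called in the same direction at both stages, and their promoters are shown for that reason. They were picked with the values in view. At E12.5, 0.982% of all genes were called higher and 1.6% lower. Of the 302 genes higher at E10.5, 5 were called higher and 5 lower there, and of the 332 lower genes 7 lower and 4 higher. Recurrence was not tested. Dlk1, an imprinted Notch-like membrane protein of growing tissue, and Tgfb2, a transforming growth factor, were higher in proximal-like cells. Msx1 and Nid1, which encodes the basement membrane protein nidogen, were lower. The 250 bases before each start are given 5′ to 3′ from RefSeq on GRCm38.p6, with capitals marking CCAAT or its complement ATTGG, and TATAAA or its complement TTTATA. The windows lie at chr12:109452573-109452822, plus strand for Dlk1, at chr1:186705990-186706239, minus strand for Tgfb2, at chr5:37824586-37824835, minus strand for Msx1 and at chr13:13437352-13437601, plus strand for Nid1, whose start in GENCODE lies 51 bases away.
Dlk1: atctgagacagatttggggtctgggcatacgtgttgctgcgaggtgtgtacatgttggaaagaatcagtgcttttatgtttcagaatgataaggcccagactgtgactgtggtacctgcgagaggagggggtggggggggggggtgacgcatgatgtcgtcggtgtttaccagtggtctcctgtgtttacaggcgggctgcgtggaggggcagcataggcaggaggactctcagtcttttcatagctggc
Tgfb2: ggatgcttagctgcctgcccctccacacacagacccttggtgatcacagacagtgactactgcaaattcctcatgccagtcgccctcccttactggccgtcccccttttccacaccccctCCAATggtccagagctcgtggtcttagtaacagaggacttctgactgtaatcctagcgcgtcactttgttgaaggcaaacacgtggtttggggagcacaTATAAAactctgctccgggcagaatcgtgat
Msx1: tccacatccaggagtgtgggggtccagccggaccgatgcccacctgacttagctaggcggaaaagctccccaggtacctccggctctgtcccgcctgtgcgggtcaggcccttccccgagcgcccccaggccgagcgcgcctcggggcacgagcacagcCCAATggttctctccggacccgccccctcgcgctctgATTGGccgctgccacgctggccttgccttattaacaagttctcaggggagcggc
Nid1: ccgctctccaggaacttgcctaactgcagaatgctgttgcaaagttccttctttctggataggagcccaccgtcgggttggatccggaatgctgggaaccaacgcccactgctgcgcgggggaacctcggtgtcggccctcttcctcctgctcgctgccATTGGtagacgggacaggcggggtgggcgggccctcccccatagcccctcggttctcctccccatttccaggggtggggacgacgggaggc
Both strands of the 250-base windows were searched, and CCAAT occurred in 33.8% and TATAAA in 12.4% of 32851 such windows over all genes. The MEIS core TGACAG, found in 15.9% of all windows, and the homeodomain core TAATTA, in 4.84%, do not occur in these 4. This says only that those letters are not in these windows.

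The ranking genes themselves were spread over the cells rather than split in 2 blocks. Meis1 plus Meis2 summed to 21.7 CPM in the lowest, 465 CPM in the median and 1905 CPM in the highest proximal-like cell, against 0, 9.30 and 145 CPM in the distal-like cells. Lhx2 plus Lhx9 summed to 0, 5.95 and 129 CPM in proximal-like cells, against 78.9, 286 and 2055 CPM in distal-like cells. Of all 114 eligible cells, 46 had both sums at 50 CPM or more and 11 had neither. In 26 cells only the Meis1 plus Meis2 sum reached 50 CPM, and in 31 only the Lhx2 plus Lhx9 sum. Of the 54 cells between the groups, 38 had both, which the ranking favours because a score near 0 needs similar sums. Of the proximal-like cells 3 had under 50 CPM of Meis1 plus Meis2 and entered by their lack of Lhx2 and Lhx9. The last proximal-like cell had a score of 2.30 and the next cell outside 2.14, and at the other end the scores were -2.25 and -2.17, so both edges cut through a continuum.

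**Figure D1:**
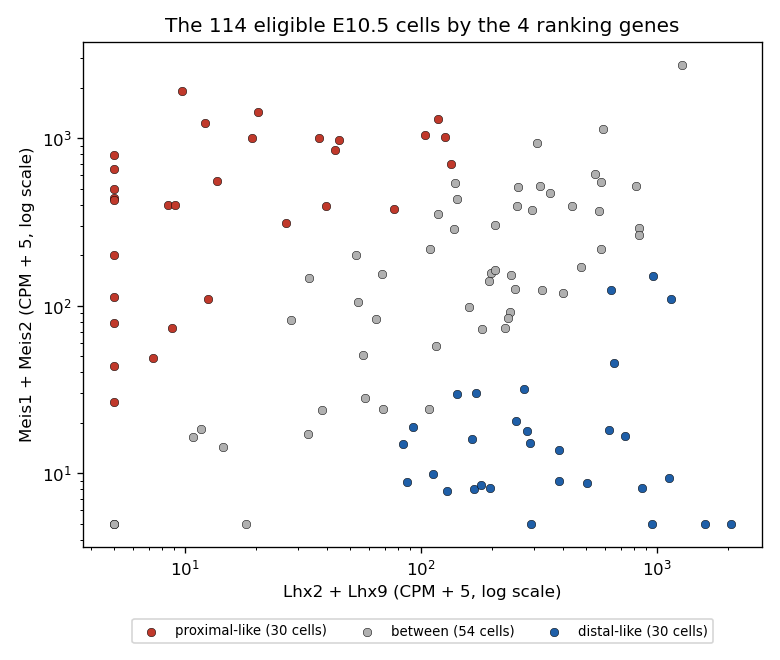
Meis1 plus Meis2 (vertical, CPM + 5, log scale) against Lhx2 plus Lhx9 (horizontal, CPM + 5, log scale) in the 114 eligible E10.5 cells, 1 point a cell. The 30 proximal-like cells lie at the upper left, the 30 distal-like cells at the lower right, and the 54 cells between them. Of all 114 cells, 46 have both sums at 50 CPM or more.

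Within each end the 2 paralogs were unequal. Meis2 reached 50 CPM in 24 and Meis1 in 17 of the 30 proximal-like cells, and 14 cells had both. Lhx2 reached 50 CPM in 29 and Lhx9 in 12 of the 30 distal-like cells, and 11 had both. Proximal-like cells of pools 1, 2 and 3 numbered 9, 8 and 13, and distal-like cells 14, 7 and 9, so each pool supplied both groups. Median depth was 209983 counts and 4105.5 genes in proximal-like cells, against 302998 counts and 4980 genes in distal-like cells. With every cell thinned to 50000 counts, which left 6583 genes measured, 148 of the 302 higher and 170 of the 332 lower genes were still called, and Nr2f1, Rrm2 and Pkdcc were not.

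Most cells of both groups read limb mesenchyme genes. The sum of Prrx1, Prrx2 and Twist1, transcription factors of limb mesenchyme, was 683 CPM in the median proximal-like cell and 781 CPM in the median distal-like cell, and it reached 200 CPM in 23 of 30 proximal-like and 24 of 30 distal-like cells. Markers of another cell type reached 200 CPM in 4 proximal-like cells (2 with the muscle progenitor factor Pax3, 1 with globins, 1 with white blood cell genes) and in 3 distal-like cells (1 with Pax3, 1 with globins, 1 with ectoderm genes). The 3 library pools used the same 40 cell barcodes and are told apart by a pool index. Tbx5, a forelimb factor, had 69.6 CPM in proximal-like and 46.4 CPM in distal-like cells, while the hind limb factors Pitx1 and Isl1 had 0 counts in all 114 cells, which allows a share of cells with a count of up to 2.63%. Tbx4, another hind limb factor, had 190 counts, spread over 4 of the 114 cells, with 20.0 CPM in proximal-like and 0.117 CPM in distal-like cells. The samples are labelled hind limb. The values of Tbx5, Pitx1 and Isl1 go against that label and the few Tbx4 counts do not, so the cells are called limb cells here.

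Msx1, Cdkn1c and Fn1 were among the genes that separated single cells best. Msx1 was lower in proximal-like cells. Cdkn1c, an imprinted inhibitor of the cell cycle, and Fn1, fibronectin of the early matrix, were higher. As a measure over cells, the pair share is the percent of all pairs of 1 proximal-like and 1 distal-like cell in which the proximal-like cell had more counts, after each cell was thinned to 50000 counts and with ties shared evenly. The thinning left out 1 shallower cell of each group. The pair share was 48.5% in the median gene, at least 70% in 14 genes, of which 7 were called, and at most 30% in 55 genes, of which 16 were called.

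**Figure D2:**
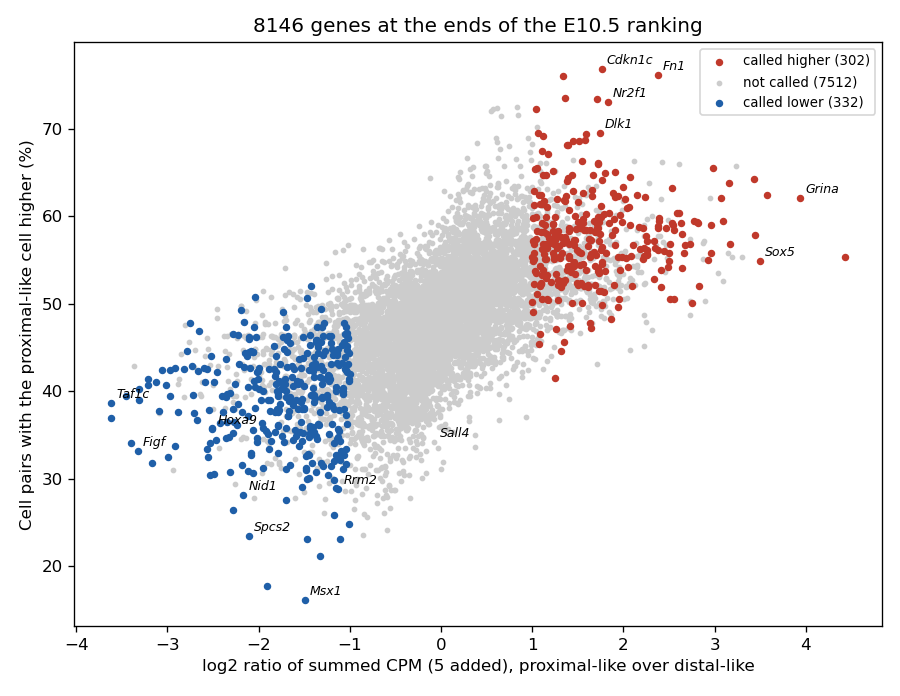
Pair share (vertical, percent of cell pairs with the proximal-like cell higher after thinning) against the log2 ratio of summed CPM, proximal-like over distal-like (horizontal), for all genes measured. Called genes are red (302 higher) and blue (332 lower). Msx1 is lowest at 16.2%, Cdkn1c is highest at 76.9%, and genes with the largest ratios, such as Grina, lie nearer the middle.

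Msx1 (GRCm38 chr5:37820485-37824583, minus strand) summed to 259 CPM (exact Poisson 95% interval 247 to 271) in proximal-like cells, against 738 CPM (720.1 to 757) in distal-like cells. By pool it had 345, 293 and 123 CPM in the proximal-like cells of pools 1, 2 and 3, against 736, 785 and 705 CPM in the distal-like cells. Over cells it had 0, 17.8 and 990.0 CPM in the lowest, median and highest proximal-like cell, against 0, 627.04 and 1908 CPM in the distal-like cells, and 4 of 30 proximal-like cells lay above the distal-like median. The log2 ratio was -1.50 and the pair share 16.2%, the lowest of all genes measured. The proximal-like pools did not overlap the distal-like ones, while single cells did. The cells between had 479.8 CPM, between both ends. Msx1as, an antisense transcript of the same locus, gave 252 CPM in proximal-like and 639.9 CPM in distal-like cells. Strand use in counting is not stated, so reads of Msx1 and Msx1as cannot be told apart. The intervals cover counting error only, and PCR copies of 1 molecule are not independent.

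Cdkn1c (chr7:143458339-143461050, minus strand) showed the reverse. It summed to 696 CPM (exact Poisson 95% interval 677 to 716) in proximal-like cells, against 202 CPM (192 to 212) in distal-like cells. It had 459, 1078 and 687 CPM in the proximal-like cells of pools 1, 2 and 3, against 228, 88.7 and 240.2 CPM in the distal-like cells. Over cells it had 4.35, 366 and 6535 CPM in the lowest, median and highest proximal-like cell, against 0, 38.8 and 981 CPM in the distal-like cells. Its log2 ratio of 1.76 became 2.02 when the highest cell at each end was left out. The pair share was 76.9%, the highest of all genes measured. The cells between had 161 CPM, below both ends.

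Fn1 (chr1:71585520-71653200, minus strand) summed to 420.2 CPM (exact Poisson 95% interval 405 to 435) in proximal-like cells, against 77 CPM (71.3 to 83.2) in distal-like cells. By pool it had 185, 490.5 and 658 CPM in the proximal-like cells of pools 1, 2 and 3, against 58.7, 65.4 and 121 CPM in the distal-like cells. Over cells it had 0, 306 and 2604 CPM in the lowest, median and highest proximal-like cell, against 0, 21 and 388 CPM in the distal-like cells. Of the 30 distal-like cells 1 lay above the proximal-like median. The log2 ratio was 2.37, the pair share 76.2%, and the cells between had 148 CPM. With 20 cells at each end its log2 ratio was 2.64 and it was not called.

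Other genes with a high pair share were Nr2f1, an orphan nuclear receptor, H2afv, a histone variant, and Egr1 and Kif20a, described with their lists. Nr2f1 had 610.4, 622.2 and 499 CPM in the proximal-like cells of pools 1, 2 and 3, against 21.1, 259.6 and 340.4 CPM in the distal-like cells. Distal-like pool 1 held hardly any, and without pool 1 the log2 ratio was 0.85 in place of 1.83, so this pool decided the call. H2afv had 226, 263 and 529.8 CPM in the proximal-like pools and 95.3, 177 and 158 CPM in the distal-like pools, with a pair share of 76%. Mdk, the heparin-binding growth factor midkine, and the nuclear RNA Malat1 passed 70% with smaller ratios, 0.55 and 0.56 on the log2 scale, and were not called. At the distal-like end, Spcs2, a signal peptidase subunit, was called lower with 41.9, 51.1 and 38.2 CPM in the proximal-like pools and 115, 259.6 and 324 CPM in the distal-like pools. It had 0, 3.92 and 294 CPM in the lowest, median and highest proximal-like cell, against 0, 113 and 818 CPM in the distal-like cells, and a pair share of 23.4%. Slfn5, a schlafen protein, Rab11fip1, an effector of endosomal recycling, and Zfp36l2, an RNA-binding protein that destabilises messages, were also called lower, with pair shares of 23.1%, 23.1% and 25.9%.

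**Figure D3:**
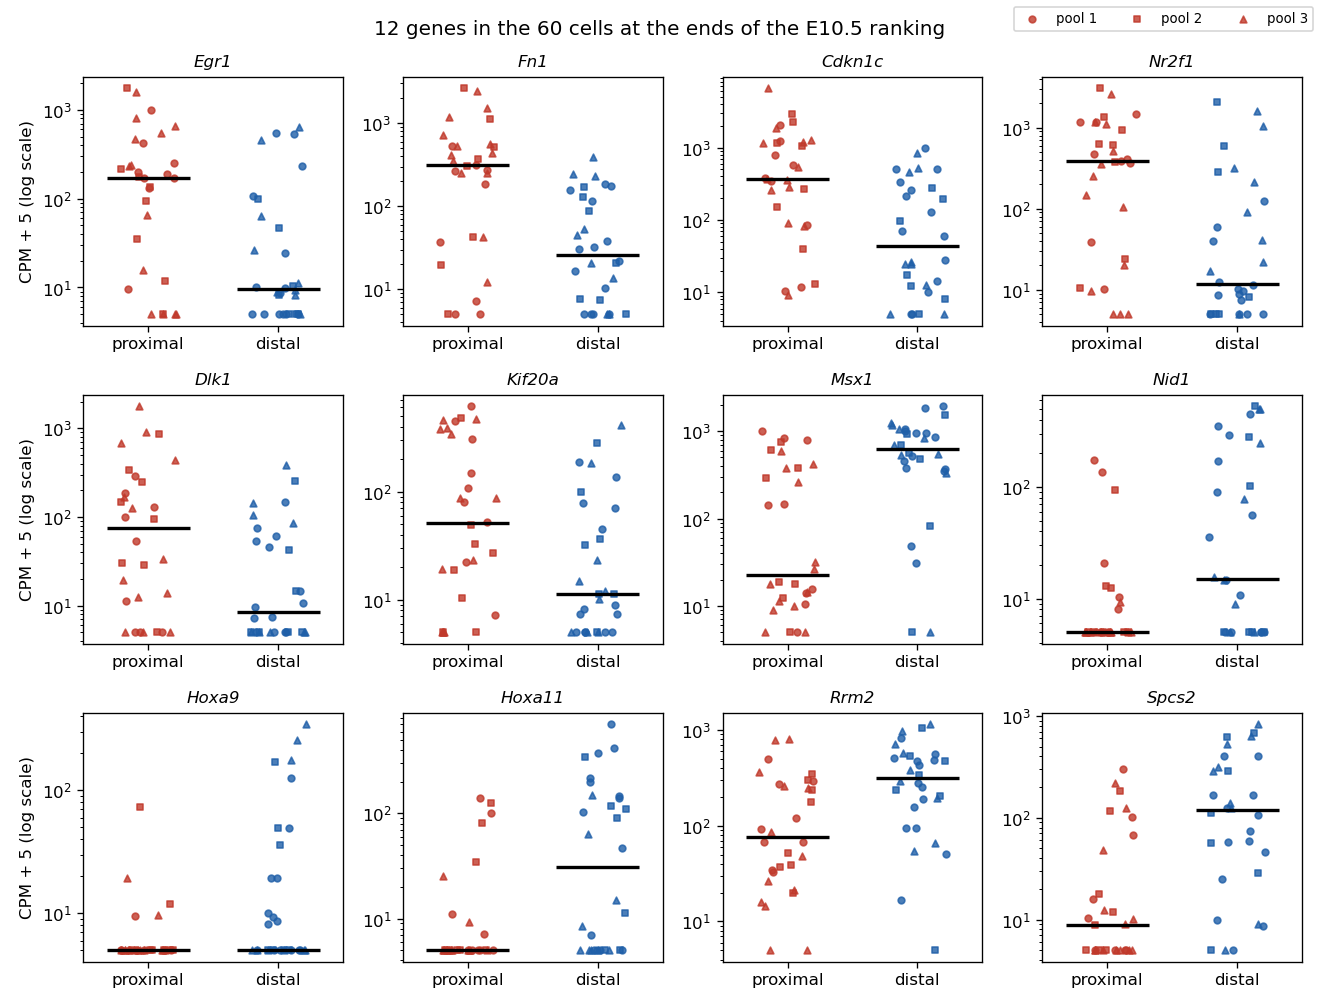
CPM + 5 (log scale) of 12 genes in each proximal-like cell (red, left) and distal-like cell (blue, right), with symbols for the library pool and a black line at the median of 30 cells. Egr1, Fn1, Cdkn1c, Nr2f1, Dlk1 and Kif20a have the higher median in proximal-like cells, while Msx1, Nid1, Hoxa11, Rrm2 and Spcs2 have the higher median in distal-like cells, and cells of both groups overlap for each gene.

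Of the proximal limb factors, 1 of 16 measured was called higher and 1, Hoxa9, lower, against 3.71% and 4.08% of all genes. Pkdcc, a secreted kinase needed for limb length, had 106, 259 and 245 CPM in the proximal-like pools and 89.6, 73.8 and 105 CPM in the distal-like pools, with a log2 ratio of 1.04. Its call held in 5 of 16 alternatives, and was lost among others with 40 cells at each end (0.87), without pool 2 (0.79) or pool 3 (0.92), after thinning (0.85) and without the cells of other types (0.91). Pbx2, a homeodomain factor, had 104 CPM in proximal-like and 99.8 CPM in distal-like cells, and Pbx3 had 11.5 CPM in proximal-like and 4.81 CPM in distal-like cells, neither called.

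The remaining proximal factors mostly leaned the same way without being called, and 11 of the 16 had a positive ratio. Their median log2 ratio was 0.46, against -0.01 over all genes. Irx3, an Iroquois factor of the proximal bud, had 76.1, 22.7 and 40.3 CPM in the proximal-like pools and 9.32, 18.3 and 43.4 CPM in the distal-like pools, which overlap. Irx5 had 49.4 CPM in proximal-like and 25.9 CPM in distal-like cells, Tbx15, a T-box factor, 155 CPM in proximal-like and 88.5 CPM in distal-like cells, and Tbx18 75.7 CPM in proximal-like and 40.2 CPM in distal-like cells. Zbtb16, a zinc finger factor of proximal skeletal elements, had 46.6 CPM in proximal-like and 20.9 CPM in distal-like cells. Shox2, needed for the upper limb bones, had 58.4 CPM in proximal-like and 51.9 CPM in distal-like cells, with a log2 ratio of 0.15. Alx4, an anterior factor, lay on the distal-like side with 12.6 CPM in proximal-like and 48.4 CPM in distal-like cells. Summed over the list, levels were 1048, 1036 and 1068 CPM in the proximal-like cells of pools 1, 2 and 3, against 855, 627.8 and 913 CPM in the distal-like cells. The proximal-like pools all lay above the distal-like ones. Sums of lists with other roles parted in this way too. The WNT list had 1285, 1088 and 1022 CPM in the proximal-like pools, against 939, 876 and 698 CPM in the distal-like pools. The growth factor and imprinted lists also parted, so this is not particular to proximal factors.

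Among distal limb factors, 0 of 17 measured were called higher and 1, Msx1, lower, against 3.71% and 4.08% of all genes. Their median log2 ratio was -0.31, and 13 of 17 were negative. Tcfap2c, an AP-2 factor, had 40.9, 4.21 and 23.8 CPM in the proximal-like pools and 119, 194 and 27.5 CPM in the distal-like pools, which overlap through pool 3 of the distal-like cells. Mycn, a growth factor-responsive MYC gene, had 30.8, 57.4 and 1.27 CPM in the proximal-like pools and 73.7, 55.5 and 192 CPM in the distal-like pools. Msx2, the paralog of Msx1, had 15.4 CPM in proximal-like and 34.6 CPM in distal-like cells, and Sall3, a spalt zinc finger factor, had 40.1 CPM in proximal-like and 91.7 CPM in distal-like cells. Sall4, the spalt factor of early limb outgrowth, summed to 144 CPM in proximal-like and 152 CPM in distal-like cells, yet its median cell had 5.4 CPM in the proximal-like group against 80.3 CPM in the distal-like group. Tbx2 leaned to the proximal-like side with 61 CPM in proximal-like and 11.7 CPM in distal-like cells. Hoxa13 and Hoxd12, autopod genes, had 0 counts in both groups. Summed over the list, levels were 1364, 1036 and 801 CPM in the proximal-like cells of pools 1, 2 and 3, against 1873, 2171 and 1769 CPM in the distal-like cells. Without Msx1 the sums were 1019, 743 and 678 CPM in the proximal-like pools, against 1136, 1386 and 1063 CPM in the distal-like pools. These did not overlap either, but pool sums of lists with other roles, such as WNT, also parted, in the other direction. Whether the distal factors part more than other lists was not tested.

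HOX genes of the A cluster act in order along the limb, from the upper segment to the autopod. Of 8 measured, 0 were higher and 1, Hoxa9, was lower, against 3.71% and 4.08% of all genes. Hoxa9 (chr6:52223100-52231089, minus strand) had 0.676, 11.1 and 2.12 CPM in the proximal-like cells of pools 1, 2 and 3, against 19.8, 39.9 and 98.4 CPM in the distal-like cells. The median cell of each group had 0 CPM and the highest had 68.1 CPM in proximal-like cells against 339 CPM in distal-like cells. The cells between had 51.6 CPM, above both ends, and when cells were ranked by Meis1 plus Meis2 alone the log2 ratio was 0.085 in place of -2.51. Hoxa11, the gene of the middle segment, had 33.1, 36.3 and 2.12 CPM in the proximal-like cells of pools 1, 2 and 3, against 142, 123 and 28.4 CPM in the distal-like cells. Its log2 ratio was -1.96 and its pair share 30.6%, but pool 3 of the distal-like cells lay below proximal-like pools 1 and 2, so it was not called. Hoxa10 had 66.7 CPM in proximal-like and 89.9 CPM in distal-like cells.

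Of 3, 1 and 5 HOX genes measured in the B, C and D clusters none was called, against 3.71% higher and 4.08% lower of all genes. So few genes can show no shortage of calls. Hoxd9 and Hoxd10 had 157 CPM against 159 CPM and 189 CPM against 169 CPM, proximal-like first in each pair, and Hoxd13 had 53.4, 0.527 and 57.3 CPM in the proximal-like pools and 40.5, 195 and 2.58 CPM in the distal-like pools. Genes toward the 3′ ends of the clusters, which in the trunk mark anterior levels, had ratios of both signs. Hoxc4 had 36.2, 24.2 and 136 CPM in the proximal-like pools and 24.8, 2.22 and 1.72 CPM in the distal-like pools, Hoxb4 53.1 CPM in proximal-like and 13.1 CPM in distal-like cells and Hoxd4 35.4 CPM in proximal-like and 12.2 CPM in distal-like cells. Hoxb3 had 28.4 CPM in proximal-like and 30.6 CPM in distal-like cells, Hoxa4 29.8 CPM in proximal-like and 31.8 CPM in distal-like cells, Hoxa5 110.0 CPM in proximal-like and 133 CPM in distal-like cells and Hoxa3 24.8 CPM in proximal-like and 9.03 CPM in distal-like cells. Hoxd11 had a count in under 10 of the 60 cells and was not among the measured genes. Of Hoxc4, Hoxb4 and Hoxd4, the median cell had 0 to 1.15 CPM in the proximal-like group and 0 CPM in the distal-like group, so most cells held hardly any.

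**Figure D4:**
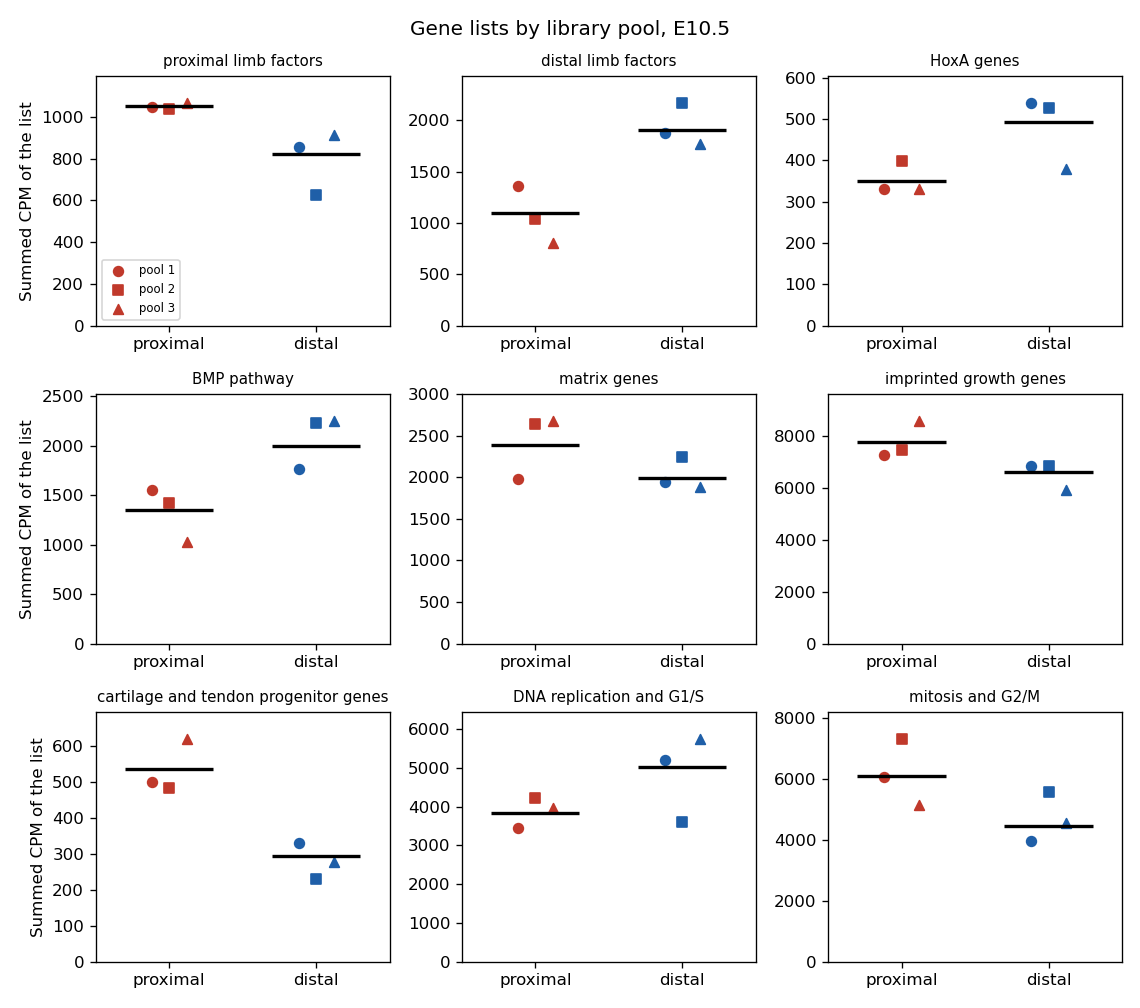
Summed CPM of 9 gene lists (vertical, from 0) in the proximal-like (red, left) and distal-like (blue, right) cells of each library pool, with a black line at the sum over all 30 cells. Proximal limb factors, imprinted growth genes and cartilage and tendon progenitor genes lie higher in all 3 proximal-like pools. Distal limb factors and BMP pathway genes lie lower, and the HoxA, matrix, G1/S and G2/M lists overlap between pools.

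FGF, retinoic acid and BMP are the signals known to set the limb's proximal and distal territories. Of 12 FGF genes measured, 1 was higher and 0 lower, against 3.71% and 4.08% of all genes. Fgfr2, the receptor that in the bud is known mainly from ectoderm and from condensing mesenchyme, had 51.4, 23.2 and 90.9 CPM in the proximal-like cells of pools 1, 2 and 3, against 9.78, 0 and 0.86 CPM in the distal-like cells. Its log2 ratio was 2.59, with 0 CPM in the median cell of both groups. Ectoderm and ridge genes summed to 60.0 CPM in proximal-like and 58.04 CPM in distal-like cells. By pool they had 48.7, 1.58 and 121 CPM in proximal-like cells, against 111, 0.555 and 3.01 CPM in distal-like cells. The median cell of both groups had 0 CPM and the highest had 1132 CPM in proximal-like and 1656 CPM in distal-like cells, so few cells carried these sums. Whether ectoderm reads have a part in the Fgfr2 difference was not tested. Of the 12 FGF genes 9 had a negative log2 ratio, with a median of -0.23, and none of these was called. Spry4, an FGF inhibitor, had 7.1, 0 and 0 CPM in the proximal-like pools and 22.7, 1.66 and 77.8 CPM in the distal-like pools, Dusp6, an ERK phosphatase, had 166 CPM in proximal-like and 219 CPM in distal-like cells, and Il17rd, a membrane inhibitor of FGF receptors, had 72.9 CPM in proximal-like and 113 CPM in distal-like cells. Etv5, an ETS factor downstream of FGF, had 166 CPM in proximal-like and 125 CPM in distal-like cells, and Flrt3, a membrane partner of FGF receptors, had 229 CPM in proximal-like and 105 CPM in distal-like cells, neither called. Etv4, another ETS factor downstream of FGF, had 25.1 CPM in proximal-like and 30.5 CPM in distal-like cells. Fgf10, the mesenchymal outgrowth signal, had 30.6 CPM in proximal-like and 36.2 CPM in distal-like cells.

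Of 10 retinoic acid genes measured, none was called, against 3.71% higher and 4.08% lower of all genes, so 10 genes can show no shortage of calls. The list's median log2 ratio was -0.13. Cyp26b1, the enzyme that clears retinoic acid from the distal bud, had 205, 2.63 and 0.849 CPM in the proximal-like pools and 174, 84.3 and 45.6 CPM in the distal-like pools, so that pool 1 held nearly all of it among proximal-like cells. Crabp1, which binds retinoic acid in the cytoplasm, had 470.0, 320.3 and 669.5 CPM in the proximal-like pools and 818, 678 and 770.2 CPM in the distal-like pools. These pools did not overlap, and the log2 ratio of -0.64 stayed under 1 in size. Aldh1a2, the enzyme that makes retinoic acid, had a count in under 10 cells. Rarb, a retinoic acid receptor and known target gene, had 28.3 CPM in proximal-like and 22.9 CPM in distal-like cells.

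Among 12 BMP genes, 0 were higher and 3 were lower, including Msx1, against 3.71% and 4.08% of all genes. Bmp7, a BMP ligand, had 14.5, 7.38 and 20 CPM in the proximal-like pools and 29.6, 36 and 75.2 CPM in the distal-like pools, with a log2 ratio of -1.32, but of 0.21 when cells were ranked by Meis1 plus Meis2 alone. Smad7, an inhibitor of the pathway, had 4.4, 4.74 and 3.4 CPM in the proximal-like pools and 11.8, 18.9 and 17.6 CPM in the distal-like pools. These levels are near the 5 CPM added to each sum. The Smad7 call held in 7 of 16 alternatives and the Bmp7 call in 9. Bmp4, another ligand, had 52.8 CPM in proximal-like and 102 CPM in distal-like cells and was not called. The direct targets Id1, Id2 and Id3 had log2 ratios of 0.21, -0.39 and 0.22, none called. The list summed to 1551, 1422 and 1030.0 CPM in the proximal-like cells of pools 1, 2 and 3, against 1759.6, 2231 and 2251 CPM in the distal-like cells. Without Msx1 it summed to 1206, 1129 and 907 CPM in the proximal-like pools against 1023, 1445 and 1546 CPM in the distal-like pools, which overlap.

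In the WNT, Notch and hedgehog lists, 0 of 15, 0 of 6 and 0 of 11 measured genes were called. Sfrp1, a secreted WNT inhibitor, had a pair share of 68.1%, with 129, 143 and 124 CPM in the proximal-like pools and 117, 16.1 and 46 CPM in the distal-like pools. Tcf7l2, a WNT effector, had 210.1 CPM in proximal-like and 91.3 CPM in distal-like cells, and Wnt5a, the WNT ligand of the distal mesenchyme, had 60.6 CPM in proximal-like and 78.2 CPM in distal-like cells. Cdon and Boc, hedgehog co-receptors, had 186 CPM against 79.1 CPM and 80.3 CPM against 19.9 CPM in proximal-like against distal-like cells. Hand2, a posterior factor, had 56.4 CPM in proximal-like and 63.4 CPM in distal-like cells. Gli3, the hedgehog repressor of the anterior bud, had 354 CPM in proximal-like and 465 CPM in distal-like cells. Of the Eph and ephrin genes, which guide cell sorting and axons, 1 of 12 was higher and 1 lower. Over all genes 3.71% were higher and 4.08% lower. Efnb3 had 33.8, 78.5 and 93.4 CPM in the proximal-like pools and 32.7, 27.2 and 5.16 CPM in the distal-like pools, and Efnb2 had 47.3, 34.8 and 41.2 CPM in the proximal-like pools and 63.7, 187 and 104 CPM in the distal-like pools. The Efnb3 call held in 5 of 16 alternatives and the Efnb2 call in 13. Epha4, known from limb mesenchyme and motor axon guidance, had 73.6 CPM in proximal-like and 187 CPM in distal-like cells and was not called.

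Most matrix and adhesion genes were not called. Of 22 matrix genes measured, 2 were higher and 1 lower, against 3.71% and 4.08% of all genes. Their median log2 ratio was 0.51. Col1a1, a chain of bone and tendon collagen, had 15.2, 51.6 and 34.8 CPM in the proximal-like pools and 6.37, 0.555 and 0.86 CPM in the distal-like pools, with a log2 ratio of 2.07. Col1a2, its partner chain, had 219 CPM in proximal-like and 159 CPM in distal-like cells, and Col3a1 had 239 CPM in proximal-like and 127 CPM in distal-like cells, neither called. Of the basement membrane genes on the list 1, Nid1, was called. Nid1 (chr13:13437551-13512269, plus strand) had 48, 19 and 0.425 CPM in the proximal-like cells of pools 1, 2 and 3, against 115, 152 and 138 CPM in the distal-like cells. Over cells it had 0, 0 and 169.6 CPM in the lowest, median and highest proximal-like cell, against 0, 10.1 and 520.0 CPM in the distal-like cells, with a log2 ratio of -2.17, but of -0.84 with 40 cells at each end. Col4a1, the type IV collagen to which nidogen binds in basement membranes, had 111, 119 and 178 CPM in the proximal-like pools and 336, 515 and 116 CPM in the distal-like pools and was not called, with a pair share of 30%. The other basement membrane genes had ratios of both signs and none was called. Lama1, a laminin chain, had 45.3 CPM in proximal-like and 8.68 CPM in distal-like cells, Lamb1, another chain, had 84.3 CPM in proximal-like and 113 CPM in distal-like cells, and Col4a2, the partner of Col4a1, had 169.9 CPM in proximal-like and 117 CPM in distal-like cells. Without Fn1 the whole matrix list summed to 1965 CPM in proximal-like against 1916 CPM in distal-like cells. Against 3.71% of all genes, 1 of 9 adhesion genes was higher. This was Cdh2, N-cadherin of condensing mesenchyme, with 62.2, 70.6 and 142 CPM in the proximal-like pools and 56.2, 12.8 and 25.4 CPM in the distal-like pools. Cdh11, the mesenchymal cadherin, leaned the other way with 33.3 CPM in proximal-like and 107 CPM in distal-like cells and was not called.

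Early skeletal genes were few but uneven. Of 8 cartilage and tendon progenitor genes measured, 2 were higher and 1 lower, against 3.71% and 4.08% of all genes. Sox9, the master factor of cartilage, had 95, 127 and 95.5 CPM in the proximal-like cells of pools 1, 2 and 3, against 29.6, 34.9 and 16.8 CPM in the distal-like cells. Its median cell had 10.9 CPM in the proximal-like and 4.14 CPM in the distal-like group, and its pair share was 56.2%. The highest cell had 1188 CPM in the proximal-like and 207 CPM in the distal-like group, and the groups differed more in their top cells than in their medians. Sox5, a partner of SOX9, had 151, 86.9 and 211 CPM in the proximal-like pools and 6.14, 18.9 and 6.88 CPM in the distal-like pools, with 0 CPM in the median cell of both groups and 2627 CPM in the highest proximal-like cell. Scx, the tendon progenitor factor of the transgene, had 121, 57.4 and 184 CPM in the proximal-like pools and 20.7, 47.7 and 57.6 CPM in the distal-like pools. Proximal-like pool 2 lay just below distal-like pool 3, so it was not called. Twist2, a mesenchymal factor, had 3.72, 3.16 and 8.49 CPM in the proximal-like pools and 30, 15.53 and 15.9 CPM in the distal-like pools and was lower. The list summed to 498, 483 and 618.99 CPM in the proximal-like cells of pools 1, 2 and 3, against 328, 229.6 and 275 CPM in the distal-like cells. Its median log2 ratio was -0.82, opposite in sign to the sum, since 5 of the 8 genes had a negative ratio.

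Imprinted genes of fetal growth had a median log2 ratio of 0.18. Against 3.71% and 4.08% of all genes, 2 of 14 members were higher and 0 lower. These were Cdkn1c and Dlk1. Dlk1 (chr12:109452823-109463336, plus strand) had 69.7, 180.2 and 209.7 CPM in the proximal-like cells of pools 1, 2 and 3, against 23.9, 64.9 and 50.3 CPM in the distal-like cells. Over cells it had 0, 69.6 and 1757 CPM in the lowest, median and highest proximal-like cell, against 0, 3.56 and 385 CPM in the distal-like cells, with a log2 ratio of 1.74 and a pair share of 69.5%. Without the cells carrying markers of another type the ratio was 1.45 and Dlk1 was not called. Meg3, the noncoding RNA of the same imprinted region, had 571.2 CPM in proximal-like and 319 CPM in distal-like cells. Its median cell had 420.4 CPM in the proximal-like and 33.5 CPM in the distal-like group and its pair share was 72.5%, but proximal-like pool 1 lay below distal-like pool 1, so it was not called. Igf2, the fetal growth factor, and Mest, a marker of fetal mesoderm, had ratios of 0.24 and 0.28 on the log2 scale. Nnat, another imprinted gene, had 739, 368 and 401 CPM in the proximal-like pools and 728, 1239.5 and 607.3 CPM in the distal-like pools, with a pair share of 27.9%, and was not called. Among 10 growth factor genes 1 was higher, against 3.71% of all genes. Tgfb2 (chr1:186622792-186705989, minus strand) had 72.7, 244 and 133 CPM in the proximal-like cells of pools 1, 2 and 3, against 61.6, 9.98 and 21.5 CPM in the distal-like cells, with a log2 ratio of 1.67. Leaving out pool 2 brought it to 0.99, just under the threshold.

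Most cell cycle genes were not called. Over all genes 3.71% were higher and 4.08% lower. Of 22 DNA replication genes, 0 were higher and 3 lower, and of 24 mitosis genes 2 were higher and 0 lower, with median log2 ratios of -0.42 and 0.44. The ratio was negative for 16 and positive for 6 of the replication genes, and positive for 14 and negative for 10 of the mitosis genes. Rrm2, a ribonucleotide reductase subunit of S phase, had 137, 174 and 211 CPM in the proximal-like cells of pools 1, 2 and 3, against 337, 368 and 466 CPM in the distal-like cells. It had 71.8 CPM in the median proximal-like and 314 CPM in the median distal-like cell. Its log2 ratio was -1.12, but -0.53 with 40 cells at each end. Ung, a uracil glycosylase, and Cdc45, of the replication helicase, had 26.3 CPM against 80.3 CPM and 9.43 CPM against 41.6 CPM in proximal-like against distal-like cells. Kif20a, a mitotic kinesin, had 189, 83.8 and 168 CPM in the proximal-like pools and 35.7, 76.5 and 82.5 CPM in the distal-like pools, and Ccnb1, cyclin B1, had 276, 472 and 147 CPM in the proximal-like pools and 137, 145 and 96.3 CPM in the distal-like pools. Kif20a had a log2 ratio of 1.36, which dropped to 0.67 without pool 1, and its call was lost. Top2a and Mki67, broad markers of cycling cells, had 1465 CPM against 814 CPM and 752 CPM against 476 CPM in the same order, with pair shares of 71.6% and 71.5%, and were not called. By pool the replication list summed to 3463, 4219.7 and 3971 CPM in the proximal-like cells of pools 1, 2 and 3, against 5200.3, 3616 and 5759 CPM in the distal-like cells. The mitosis list summed to 6080.1, 7328 and 5162 CPM in the proximal-like cells of pools 1, 2 and 3, against 3952, 5572 and 4547 CPM in the distal-like cells. Both overlap between groups. The part of the cell cycle in the other differences was not tested.

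Immediate-early genes, which in dissociated tissue can also follow enzyme treatment, had 2 of 12 members higher, against 3.71% of all genes. Both encode transcription factors that growth signals switch on. Fos had 301, 304 and 393 CPM in the proximal-like pools and 102, 74.9 and 122 CPM in the distal-like pools, and Egr1 had 266, 216 and 385 CPM in the proximal-like pools and 101, 11.6 and 113 CPM in the distal-like pools, with pair shares of 64.7% and 73.4%. With 40 cells at each end their log2 ratios were 0.83 and 0.82, under the threshold. The list as a whole summed to 12381 CPM in proximal-like against 12273 CPM in distal-like cells. Of 16 glycolysis genes measured 1, Pfkl, the liver type phosphofructokinase, was lower, against 4.08% of all genes. Pfkl had 124, 58.5 and 138 CPM in the proximal-like pools and 329.9, 253 and 174 CPM in the distal-like pools. Heterochronic growth genes had none of 10 called, and Hmga2, a chromatin protein of early progenitors, had 1724 CPM in proximal-like and 1289.7 CPM in distal-like cells.

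Of the lists of other cell types, 2 had a called member, muscle progenitors and neural crest. In each, 1 of 2 measured genes was higher, against 3.71% of all genes. The other such lists had 0 to 3 measured genes, so these counts say little of the lists. Met, the receptor of migrating muscle progenitors, had 79.5, 88.5 and 48 CPM in the proximal-like pools and 32.1, 0 and 1.29 CPM in the distal-like pools, with a log2 ratio of 1.81. This became -0.50 when cells were ranked by Meis1 plus Meis2 alone, and 3.07 without the cells that carry markers of another type. The summed muscle progenitor list was 161 CPM in proximal-like and 78.3 CPM in distal-like cells, and Pax7, Lbx1, Myf5, Myod1 and Myog had 0 counts in both groups. Ets1, held on the neural crest list, had 25.4 CPM in proximal-like and 6.1 CPM in distal-like cells, while the whole list summed to 33.7 CPM in proximal-like and 40.6 CPM in distal-like cells and Sox10 and Foxd3 had 0 counts. Endothelial genes summed to 16.2 CPM in proximal-like and 6.68 CPM in distal-like cells. Among the 5 cells left out for Cdh5, the median had 206 CPM of Meis2. The same 5 cells all had counts of the mesenchyme factor Prrx1, with a median of 232 CPM. Whether their Meis2 reads come from endothelium or from mixed cells was not tested.

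The largest ratios belonged to genes with a count in 12 to 31 of the 60 cells. The 15 named in each direction had log2 ratios of 3.94 (Grina) to 2.39 (Pip4k2c) higher and of -3.62 (Taf1c) to -2.67 (Zfp26) lower. Grina, a membrane protein linked to cell survival, had 162, 38.5 and 39.9 CPM in the proximal-like pools and 0.682, 0 and 3.01 CPM in the distal-like pools, and 1 cell of 2836 CPM held 64.1% of its proximal-like counts. Alcam, an adhesion molecule of the immunoglobulin family, had 80.5, 107 and 56.9 CPM in the proximal-like pools and 2.05, 4.99 and 0 CPM in the distal-like pools. Hdac6, a tubulin deacetylase, and Tbl1x, a corepressor subunit, had 116 CPM against 10.9 CPM and 110.0 CPM against 14.5 CPM in proximal-like against distal-like cells. The others higher were Taf12, Fbxl19, Taz, Klhl18, Tmem214, Fgfr2, Rab40c, Pi4ka, B3galtl and Mterfd2.

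At the lower end, Figf, a vascular endothelial growth factor also called VEGF-D, had 0, 1.05 and 1.7 CPM in the proximal-like pools and 35.2, 103 and 49.9 CPM in the distal-like pools. Socs2, a feedback inhibitor of growth hormone and cytokine signalling, had 5.41, 0 and 19.1 CPM in the proximal-like pools and 86.8, 239.6 and 75.6 CPM in the distal-like pools. Bop1, a ribosome biogenesis factor, and Ap1b1, a clathrin adaptor subunit, had 14.6 CPM against 119.7 CPM and 2.22 CPM against 56.8 CPM in proximal-like against distal-like cells. Taf1c and Lrrc50 had nearly the same counts in every pool, so which of the 2 the reads came from is uncertain. The others lower were Fam49b, Pmm1, Rbbp5, Ublcp1, Snx19, Naf1, Slc15a4 and Zdhhc5. Over all called genes, 1 cell held more than 50% of the higher group's counts in 29 of 302 higher and 24 of 332 lower genes. With the highest cell of each group left out gene by gene, 264 and 306 still had a log2 ratio past 1 in the called direction. Under the whole rule, pools included, 119 of the 302 (39.4%) and 169 of the 332 (50.9%) were still called. The cells between lay between both ends for 246 of the 302 and 262 of the 332.

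At E12.5 few of these differences recurred. The same ranking gave 30 cells at each end, but only 27 of the 155 cells had a score above 0, and 10 of the 30 at the proximal end had a score under 1. In that comparison 88 of 8965 genes (0.982%) were called higher and 143 (1.6%) lower at the proximal end. Of the 302 genes higher at E10.5, 5 were called higher and 5 lower at E12.5, and of the 332 lower genes, 7 were called lower and 4 higher. The sign of the ratio was the same for 46.4% of the higher and 50.6% of the lower genes.

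The genes called in one direction at both stages were B3galtl, Dlk1, Fam101b, Tars and Tgfb2 on the proximal side, and Ankmy2, Msx1, Msx1as, Nid1, Nup155, Rbm33 and Vmp1 on the distal side. At E12.5, Dlk1 had 207 and 18.8 CPM at the proximal and distal ends, Tgfb2 209 CPM against 31.2 CPM, Msx1 228 CPM against 909 CPM and Nid1 5.75 CPM against 63.7 CPM, proximal end first. With only the 20 proximal-end cells of score 1 or more, the E12.5 log2 ratio of Msx1 was -2.92 and that of Dlk1 3.48. Fn1, Egr1 and Fos, higher at E10.5, differed little at E12.5, with 356 CPM against 391 CPM, 1170.4 CPM against 1185 CPM and 564.5 CPM against 593.9 CPM. Nr2f1 had 49.3 CPM against 85.2 CPM. Shox2 was called higher at E12.5 and not at E10.5, with 255 CPM against 30.8 CPM, and so were Meg3 and Igf2, with 1657 CPM against 459 CPM and 1939.7 CPM against 796 CPM. Whether the stages differ was not tested, and each is 1 sample.

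**Figure D5:**
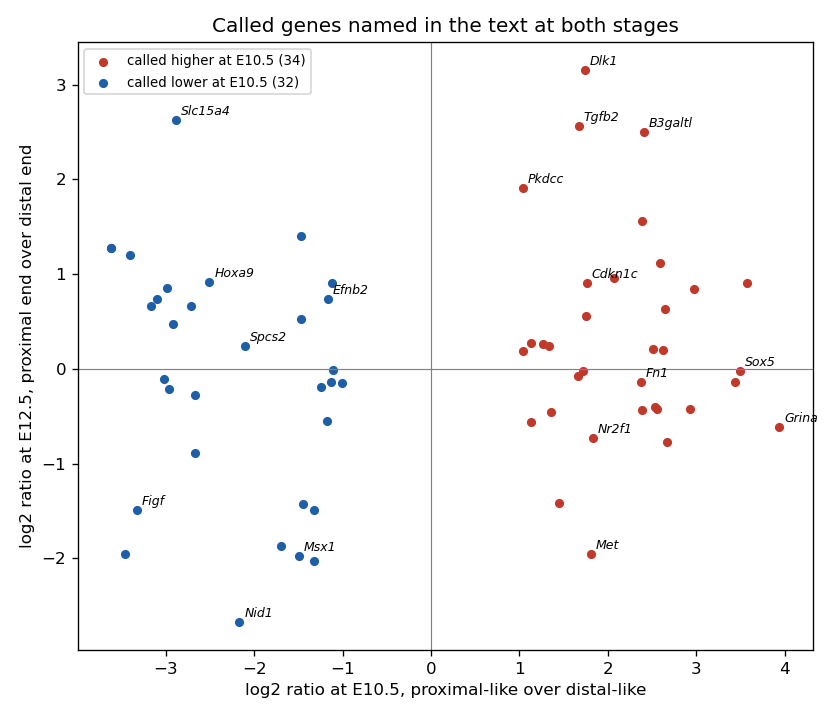
Log2 ratio at E12.5 (vertical, proximal end over distal end) against E10.5 (horizontal, proximal-like over distal-like) for 66 genes called at E10.5 that belong to the lists or are named here. Dlk1, Tgfb2 and B3galtl lie at the upper right and Msx1 and Nid1 at the lower left, while the rest scatter on both sides of 0 at E12.5.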

How the data were processed

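Whole-number read counts per gene and cell were used as the authors deposited them, 1 column a cell; per the submitters' processing notes, Bowtie2, featureCounts and mm10 were used, with versions not given in the sources used here. Per the labels' protocols, cells were captured on Fluidigm C1 chips and libraries made with Nextera XT, and no molecular identifiers are named, so Poisson intervals cover counting error only. The table's 22738 entries gave 22092 symbols after 298 duplicated symbols were summed. Of 1600 labelled cells, 480 had columns and 1120 were not analysed here. Eligible E10.5 cells held a median of 209983 (proximal-like), 278374 (between) and 302998 (distal-like) counts.

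Counts were summed per group and scaled to CPM. Log2 ratios, calls and list sums were computed with Python 3.11.15, numpy 2.4.6, pandas 2.3.3 and scipy 1.17.1. The code of the call rule was also run on simulated counts. These had no pool effects and no ranking of cells by their own counts, so that run says nothing of how reliable the calls here are. Scrublet in scanpy 1.11.5 with default settings marked 15 of 114 cells as doublets (2 proximal-like, 9 between, 4 distal-like), and these were left in. No cell's counts were identical to another's. The members, the 37 gene lists and the comparisons were chosen with earlier results of these data known. Named genes were limb genes listed by name, up to 5 members of each list per direction, and, per direction, the 15 called genes of largest ratio that had 50 CPM and counts in 30% of cells in the higher group, leaving out ribosomal, predicted and ranking genes. Genes named for their pair share or for E12.5 were picked with their values in view. The promoters printed, the pair share, the depth minimum and the doublet alternative were chosen after seeing the values, and the promoters depart from the rule fixed earlier, which took the largest ratios. Of the proximal limb factors, 1 is not reported here and was left out of its list. Coordinates are GENCODE vM21 on GRCm38. Alternatives changed the pseudocount, the number of cells, the ranking, the filters, the scaling and the pools.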

Additional observations from a re-analysis of the deposited data

Results flagged for a closer look

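Efnb2, an ephrin ligand, and Slc15a4, a lysosomal amino acid and peptide transporter, had opposite directions at E12.5 and E10.5 in every library pool. Efnb2 had a log2 ratio of 0.74 at E12.5, with pool values of 0.74, 0.33, 0.59 and 1.41, against -1.17 at E10.5, with pool values of -0.39, -2.27 and -1.24. Slc15a4 had a log2 ratio of 2.63 at E12.5, with pool values of 0.49, 1.31, 3.99 and 3.63, against -2.88 at E10.5, with pool values of -2.10, -3.27 and -3.90. The difference between stages was not tested, and pools of 1 sample are not replicates. The median cell had 0 CPM of Slc15a4 in both groups at E10.5.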

How the results depend on the processing

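No paired analysis was possible because each stage was 1 pooled sample with no test, and cells and library pools carry no pairing. The share of genes called rested on the rule. Against 3.71% higher and 4.08% lower, a log2 ratio with no demand on pools called 11.8% and 12.02%, and a count in at least 20 cells called 3.187% (181 genes) and 3.838% (218 genes), while a pseudocount of 20 CPM called 2.603% lower. Leaving out 1 pool at a time, which leaves fewer pools to keep apart, called 8.267% to 10.26% higher and 9.81% to 10.51% lower. Which genes were called changed with the ranking and the number of cells. Ranking by Meis1 plus Meis2 alone called 96 of the 302 higher genes (31.8%) and 83 of the 332 lower ones (25%), ranking by Lhx2 plus Lhx9 alone 69 and 94, and taking 20 or 40 cells an end 81 and 131, or 129 and 131. Leaving out the cells with markers of another cell type kept 186 and 239, and leaving out those marked by Scrublet 226 and 255. Of 66 called genes named in the text or the lists, 61 had the same sign in all 16 alternatives and 6 were called in all of them, Msx1, Col1a1, Cdkn1c, Spcs2, Figf and Ap1b1. Another pseudocount or leaving out a pool cannot reverse the sign of a called gene, so part of the shared sign was fixed in advance. The call was kept in a median of 12 and at least 5 alternatives. The sign reversed for Hoxa9 (0.085), Bmp7 (0.21) and Met (-0.50) when ranked by Meis1 plus Meis2 alone, and for Pfkl (0.16) and Mterfd2 (-0.21) when ranked by Lhx2 plus Lhx9 alone. The cause was not tested. With 40 cells an end Nid1 had -0.84, Hoxa9 -0.34, Rrm2 -0.53, Egr1 0.82 and Fos 0.83, all under the threshold, Fn1 was not called with 20 cells an end, and Dlk1 was not called without the cells of other types. The shift of median-of-ratios scaling was 0.018 on the log2 scale, and with 5 CPM added, genes of low level moved by less.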
